A study of Homo sapiens with 13 samples.

Results

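The genes described here are 4 receptor tyrosine kinases whose rearrangement drives a share of lung cancers: ALK, ROS1, RET and NTRK3, out of 19974 protein-coding genes. For each, the strand polarity of replication-derived DNA ends was read in every 20 kb window that overlapped its RefSeq span on GRCh38 or lay within 500 kb of either end, in all 13 libraries of the series. The step across a gene is the mean polarity of the 3 windows after it (higher coordinates) minus the mean of the 3 windows before it. TrAEL-seq tags free 3′ ends of genomic DNA, most of which lie at replication forks in dividing cells, so that the balance of reads between the strands follows the direction in which forks cross a window. Libraries came from PC9, an established human lung adenocarcinoma line with an activating EGFR mutation, treated or not with osimertinib, an EGFR inhibitor. Untreated cells gave 3 libraries; cells in 500 nM osimertinib gave 2 at day 7, 2 at day 14 and 4 at day 28, and 1 library came from each of the resistant lines 5 and 10, which were derived from single-cell clones and kept in the drug. All cells were of PC9 origin. Depth is unknown, since the table holds no read numbers. Per the design text the cultures kept 28 days in the drug did not proliferate, while the untreated cells and the resistant lines grew. Replicates 3 and 4 of day 28 carry a treatment label of 7 days and were kept at day 28 by their titles. The labels do not tell whether replicates are separate cultures, and a p-value here covers only the variation among these libraries, possibly a technical one.

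The oncogenic form of each of these kinases usually arises when its kinase domain, encoded toward the 3′ end of the gene, is joined behind the 5′ part of a partner that is expressed and self-associates, such as EML4 for ALK, KIF5B or CCDC6 for RET, CD74 for ROS1 and ETV6 for NTRK3. The resulting protein signals without ligand, and such fusions are among the routes by which EGFR-mutant lung tumours escape EGFR inhibitors. Replication forks start at initiation zones and run outward until they meet forks from the next zone, so polarity rises across an initiation zone and falls where forks converge. Polarity reports neither rearrangement nor expression of these genes. Among all changes of the untreated mean over 60 kb, the highest 0.5% were rises of more than 121 points and the lowest 0.5% were falls beyond -78.2 points. Rises were read as initiation and positive polarity as rightward forks on that basis, and with the opposite sign the zones named here would be termini.

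ALK, the receptor of the ALKAL ligands, spans chr2:29192774-29921586 on the minus strand (728.813 kb). ROS1, a receptor bound by NELL2, spans chr6:117287353-117425942 on the minus strand (138.59 kb). RET, the receptor of the GDNF family, spans chr10:43077069-43130351 on the plus strand (53.283 kb). NTRK3, the receptor of neurotrophin 3 (gene NTF3), spans chr15:87859751-88256739 on the minus strand (396.989 kb). Of the 271 windows in the 4 regions, 210 had a value in every library: 81 of 88 around ALK, 49 of 58 around ROS1, 44 of 54 around RET and 36 of 71 around NTRK3. Most gaps lay in replicate 1 of day 7, which had a value in 61.4% of windows genome-wide against 81.8% to 93.4% in the other 12 libraries.

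The 250 bases before the transcription start are shown for ROS1 and RET, because the window holding the 5′ end of each passed the test at day 28 (below) and the pair differ most in CG content among the 4 genes. Both are from RefSeq on GRCh38.p14, 5′ to 3′ on the gene's strand, with each CG dinucleotide in capitals; ROS1's is chr6:117425943-117426192 (minus) and RET's is chr10:43076819-43077068 (plus).
ROS1: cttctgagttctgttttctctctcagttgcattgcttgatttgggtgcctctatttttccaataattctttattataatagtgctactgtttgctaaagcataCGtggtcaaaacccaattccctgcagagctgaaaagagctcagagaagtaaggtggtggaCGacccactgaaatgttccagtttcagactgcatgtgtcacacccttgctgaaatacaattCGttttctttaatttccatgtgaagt
RET: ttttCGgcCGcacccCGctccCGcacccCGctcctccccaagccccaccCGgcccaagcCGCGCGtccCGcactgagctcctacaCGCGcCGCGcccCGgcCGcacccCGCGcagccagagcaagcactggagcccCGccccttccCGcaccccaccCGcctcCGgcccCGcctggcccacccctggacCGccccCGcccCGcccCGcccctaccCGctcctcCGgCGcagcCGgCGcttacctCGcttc
The motif searched was CG, which reads the same on both strands. ROS1 held 3 CG and 40% G or C, and 29.3% of 35116 RefSeq promoters held as few CG. RET held 33 CG and 79.6% G or C, and 93.2% of promoters held that many or fewer, against a median of 11. ALK held 24 and NTRK3 held 23. A 20 kb window does not resolve a promoter, so these counts describe the genes and not the polarity.

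ROS1 and RET lay wholly in leftward-replicating DNA in untreated cells, ALK spanned a stretch where forks converged, and NTRK3 had a gene mean close to balance. All 8 windows of ROS1 and all 4 of RET had a negative untreated mean, from -87.7% to -68.5% in ROS1 and from -87.5% to -72.5% in RET. Of ALK's 38 windows 25 were positive, and the 3 windows before the gene averaged 92.5% ± 4.15 (SD, n = 3) against -82.9% ± 5.57 in the 3 after it. Of NTRK3's 21 windows 8 were positive, and they ran from -56.6% to 33.0%. The 3 windows before NTRK3 averaged 32.0% ± 11.6 and the 3 after it -35.4% ± 7.32. Gene means rest on the windows with a value in every library: 11 of 21 for NTRK3, 5 of 8 for ROS1, 32 of 38 for ALK and all 4 for RET. By the size of the gene mean, 8.41% of the 16413 genes tested were more polarised than ROS1 and 5.42% more than RET, against 65.9% for ALK and 91.4% for NTRK3. In both ALK and NTRK3 opposite ends cancel in a mean. Read against transcription, ROS1 (minus strand) was replicated in the direction of its transcription and RET (plus strand) against it, under the sign stated above. Within ALK (minus strand), the 3′ part was replicated against transcription and the 5′ part with it.

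**Figure D1:**
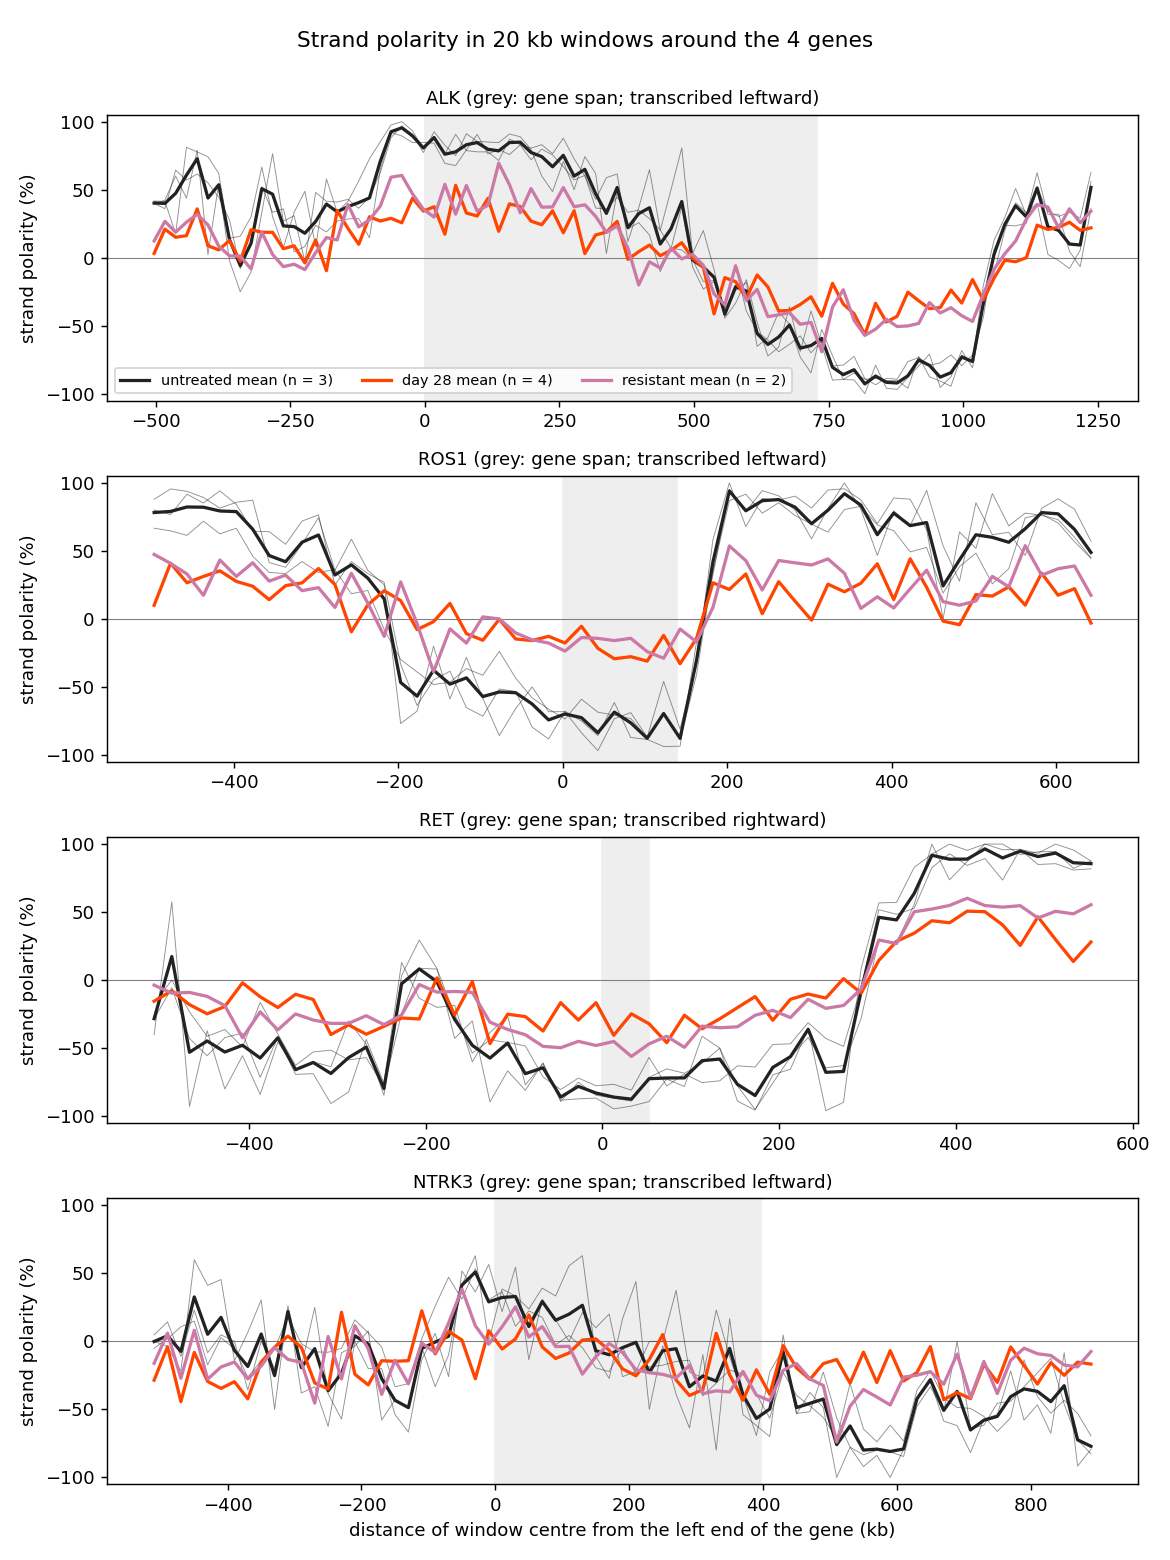
Strand polarity (%, y axis) of 20 kb windows against the distance of the window centre from the left end of each gene (kb, x axis), for the untreated (n = 3), day 28 (n = 4) and resistant (n = 2) means in thick lines and the 3 untreated libraries in thin lines; means are over the libraries with a value. The untreated profile rises steeply 41.9 kb right of ROS1 and 257 kb right of RET and falls through ALK. Around these 3 genes the day 28 and resistant profiles mostly run closer to 0. Around NTRK3 they do so right of the gene. Left of it the median window size was 17.6% untreated, 21.4% at day 28 and 15.2% in the resistant lines.

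ROS1, negative throughout in untreated cells, rose in mean polarity at day 28. The 3 untreated libraries read -81.8%, -79.7% and -72.6%. The day 7 libraries read -29.0% and -36.8%, and those of day 14 -18.5% and -49.6%. The 4 day 28 libraries read -26.3%, -25.9%, -30.7% and -1.44%. All 8 osimertinib libraries lay closer to 0 than any untreated library, with replicate 4 of day 28 nearest 0 and replicate 2 of day 14 farthest. Line 5 read 1.82% and line 10 read -31.1%, also both above the untreated range. From -78.0% ± 4.84 (SD, n = 3) untreated to -21.1% ± 13.3 (n = 4) at day 28 the mean rose by 57.0 points (SE 11.8, adjusted p = 0.0132 in limma over all genes). At day 7 the difference was 45.2 points (SE 14.1, adjusted p = 0.0753), at day 14 it was 44.0 points (adjusted p = 0.105) and in the resistant lines 63.4 points (adjusted p = 0.193), none past the threshold of 0.05.

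RET also rose at day 28, by an amount within 1 SE of that of ROS1. Its untreated libraries read -82.9%, -90.8% and -73.0%. The day 7 libraries read -57.6% and -25.6%, and the day 14 libraries -54.2% and -56.9%. The day 28 libraries read -31.8%, -18.6%, -42.7% and -20.9%, and lines 5 and 10 read -36.7% and -61.3%. No treated or resistant library overlapped the untreated range, and line 10, replicate 1 of day 7 and both day 14 libraries stayed nearest to it. The rise from -82.2% ± 8.93 to -28.5% ± 11.1 was 53.7 points (SE 11.8, adjusted p = 0.0132). The differences of 40.6 points at day 7 (adjusted p = 0.0966), 26.7 points at day 14 (adjusted p = 0.263) and 33.2 points in the resistant lines (adjusted p = 0.213) did not pass.

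ALK and NTRK3 did not pass in mean polarity at any time. ALK read 20.2%, 27.1% and 20.9% untreated, 7.82% and 4.52% at day 7, 3.87% and 8.70% at day 14, and -4.24%, 11.4%, 7.80% and 4.55% at day 28. Lines 5 and 10 read 2.12% and 9.38%. All 10 treated and resistant libraries were below the 3 untreated ones, and the difference at day 28 was -17.9 points (SE 8.07, adjusted p = 0.110). NTRK3 read -2.53%, -1.28% and -12.4% untreated, -7.36% and -9.95% at day 7, -25.6% and -11.2% at day 14, and -11.4%, -12.9%, -19.2% and -6.15% at day 28. Lines 5 and 10 read -16.6% and -15.5%. The groups overlapped, replicate 3 being the lowest untreated library, and the difference at day 28 was -7.02 points (SE 8.15, adjusted p = 0.535).

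**Figure D2:**
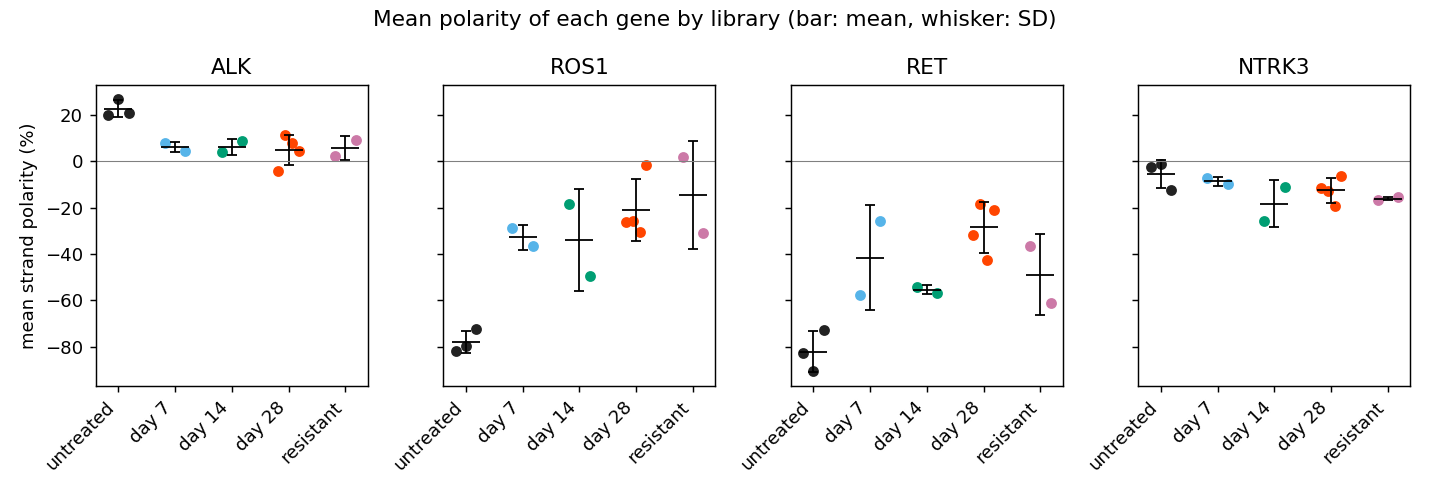
Mean strand polarity of each gene (%, y axis) in every library by group (x axis: 3 untreated, 2 day 7, 2 day 14, 4 day 28, 2 resistant); dots are libraries, bars group means and whiskers SD. The untreated dots of ROS1 and RET sit between -90.8% and -72.6%, apart from all treated and resistant dots, while those of NTRK3 overlap.

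In counts, 2 of 4 genes passed at day 28, where 28.9% of all 16413 genes passed. None of 4 passed at day 7, at day 14 or in the resistant lines, where 2.97%, 1.34% and 0% of genes passed in limma; at an unadjusted p under 0.05 stood 2, 1 and 2 of the 4, ROS1 in each and RET at day 7 and in the resistant lines. The direct comparisons of day 28 with day 7 and of the resistant lines with day 28 called 0% of genes each and none of the 4 in limma, none of the 4 having an unadjusted p under 0.05 there. All comparisons with untreated cells share the same 3 untreated libraries. The day 28 calls rest on the untreated libraries: without untreated replicate 1 ROS1 and RET both had an adjusted p of 0.0585, and without untreated replicate 2 they had 0.0649 and 0.0655, with 0 of 16413 genes called in either case and changes of 49.4 to 56.1 points. They held without replicates 3 and 4 of day 28 together (adjusted p = 0.0314 for ROS1 and 0.0284 for RET). A block for the replicate number ended both calls, as given in the closing section.

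Polarity shrank over the whole genome, so the changes were also read relative to it. The slope of a library's polarity on the untreated profile over all windows, a measure of amplitude, was 0.937 ± 0.116 (SD, n = 3) in untreated libraries, each set against the others, and 0.329 ± 0.0877 (n = 4) at day 28. The resistant lines differed from each other, at 0.285 (line 5) and 0.641 (line 10). At day 28 ROS1 kept 27.0%, RET 34.6% and ALK 21.4% of the untreated mean, where the genome-wide slope kept 35.2%. NTRK3's mean instead moved away from balance. It was -5.41% ± 6.11 (n = 3) untreated, -12.4% ± 5.37 (n = 4) at day 28 and -16.1% ± 0.782 (n = 2) in the resistant lines. Its day 28 and untreated libraries overlapped. With each library's polarity divided by its genome-wide slope, the day 28 differences were 16.7 points for ROS1 (adjusted p = 0.939) and 1.53 points for RET (adjusted p = 0.993), and no gene of 16413 was called, 864 having an unadjusted p under 0.05. Division by a small slope also enlarges the scatter of the treated libraries. These p-values therefore cannot tell whether a change beyond the amplitude remained, and the same limit holds for the scaled tests below. The median size of the gene mean over all genes went from 34.6% untreated to 13.3% at day 28.

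The step across ALK was the lowest of the 17152 genes with a step in untreated cells from each library's own windows, rightward-replicated before the gene and leftward after it. The windows compared lie farther apart in a long gene (728.813 kb for ALK), so this rank depends on gene length. Tests in this paragraph used windows filled in all 13 libraries. ALK's step read -176, -185 and -166 points in the untreated libraries. It read -140.5 and -91.9 points at day 7 and -62.4 and -144 at day 14. The 4 day 28 libraries read -29.7, -63.1, -80.6 and -83.1 points. No treated library reached the untreated range, replicate 1 of day 7 and replicate 2 of day 14 came nearest, and line 10 (-129 points) was nearer than line 5 (-52.6 points). From -175.5 ± 9.63 to -64.1 ± 24.6 points at day 28 the step rose by 111 points toward 0 (SE 28.8, adjusted p = 0.00969), leaving 36.6% of it. The differences of 59.3 points at day 7 (adjusted p = 0.287), 72.4 at day 14 (adjusted p = 0.202) and 84.7 in the resistant lines (adjusted p = 0.282) did not pass. They depended on the library kept: 83.6 and 35.0 points without day 7 replicate 1 and 2, 31.7 and 113 without day 14 replicate 1 and 2, and 46.5 and 123 without line 5 and line 10. Both sides moved at day 28: the windows before ALK averaged 32.8% ± 5.35 and those after it -31.4% ± 20.0.

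Only ALK and RET had enough windows filled in all 13 libraries for a step in the main fit, and 1 of these 2 (ALK) passed at day 28, where 21.6% of 11698 genes passed; none of the 2 passed in limma at day 7 (7.6% of genes), day 14 (3.93%) or in the resistant lines (0%). ALK had an unadjusted p under 0.05 at day 14 and in the resistant lines. The ALK call was lost without untreated replicate 1 (adjusted p = 0.0508) or 2 (adjusted p = 0.0615), and with polarity divided by the genome-wide slope the difference was -6.42 points (adjusted p = 0.994). RET's step was small throughout: 10.4, 19.0 and 2.38 points untreated, 38.5 and 19.6 at day 7, 28.8 and 31.0 at day 14, -12.7, -14.3, 2.74 and 12.1 at day 28, and 5.11 and 7.29 in lines 5 and 10. The day 28 and untreated libraries overlapped, with a difference of -13.7 points (adjusted p = 0.493).

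ROS1 and NTRK3 obtained a step when each library's own windows were used, a choice made after seeing the gaps. In that fit 3 of 4 genes passed at day 28, where 18.5% of 17152 genes passed, and 1 of 4 (ROS1) at day 7, where 6.77% did; none passed in limma at day 14 (2.93%) or in the resistant lines (0%), where ALK and ROS1 had an unadjusted p under 0.05 in both. The step of ROS1 read 111, 103 and 82.9 points untreated, 24.0 and 8.95 at day 7, 32.0 and 62.3 at day 14, and 50.9, 3.91, 20.9 and 38.1 at day 28. Lines 5 and 10 read 21.4 and 37.6 points, and no treated or resistant library overlapped the untreated range. The step fell by 70.4 points at day 28 (SE 16.3, adjusted p = 0.00816) and by 82.4 points at day 7 (SE 19.5, adjusted p = 0.0217). The day 28 call was lost without untreated replicate 1 (adjusted p = 0.0541) or 2 (adjusted p = 0.0550), and the day 7 call without untreated replicate 1 (0.0828) or 2 (0.0879) or either day 7 library (0.0662 without replicate 1, 0.0509 without replicate 2). With polarity divided by the genome-wide slope the differences were -14.7 points at day 28 (adjusted p = 0.987) and -70.4 at day 7 (adjusted p = 0.995).

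NTRK3's step read -47.6, -71.0 and -83.6 points untreated, -23.3 and -62.0 at day 7, -31.3 and -32.3 at day 14, and -17.4, 25.5, -44.1 and -25.9 at day 28. Lines 5 and 10 read -32.1 and -64.2 points. Line 10 and replicate 2 of day 7 fell inside the untreated range, and no day 28 library did. The day 28 difference was 51.9 points (SE 17.5, adjusted p = 0.0431). It did not pass without any 1 of the 3 untreated libraries (adjusted p = 0.0710, 0.141 and 0.155 without replicates 1, 2 and 3) or without replicate 1 (0.0694), 2 (0.152) or 4 (0.0570) of day 28, and scaled to the genome-wide slope it was 38.4 points (adjusted p = 0.974).

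**Figure D3:**
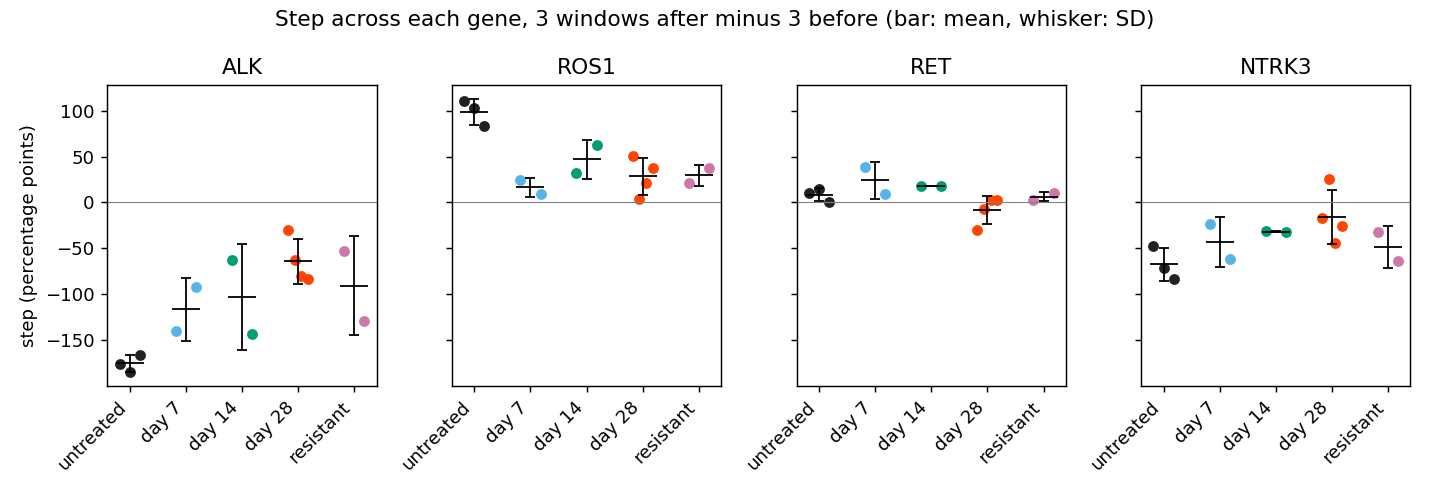
Step across each gene (percentage points, y axis), the 3 windows after minus the 3 before with the windows each library holds, by library and group (x axis; 3 untreated, 2 day 7, 2 day 14, 4 day 28, 2 resistant); bars are means, whiskers SD. ALK's untreated dots sit between -185 and -166 points and ROS1's between 82.9 and 111 points, and all other groups lie nearer 0 for both genes.

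Within ALK the polarity fell from the 3′ toward the 5′ end, though not without a break. A line fitted through the windows of the gene had a gradient of -24.9, -24.1 and -24.8 points per 100 kb in the untreated libraries. This gradient and the right minus left difference below were not among the planned tests, and the difference was added after seeing the data. In the osimertinib libraries the gradient was -16.7 and -12.9 at day 7, -12.0 and -20.2 at day 14, and -11.8, -8.50, -15.4 and -11.9 at day 28. Every osimertinib library was shallower than every untreated one (-13.7 ± 3.61, n = 8, against -24.6 ± 0.450, n = 3; 2-sided exact permutation p = 0.0121, the smallest the design allows, and 0.0727 adjusted over 6 tests). Lines 5 and 10 had -9.80 and -20.6 points per 100 kb (exact permutation p = 0.2, the smallest with 2 against 3). The line crossed 0 at 477 ± 17.2 kb from the left end in untreated and 427 ± 45.9 kb in osimertinib libraries (exact permutation p = 0.121, adjusted p = 0.24), replicate 2 of day 28 lying to the right of all untreated libraries at 518 kb. The untreated mean itself, averaged over 4 neighbouring windows, crossed 0 at 522 kb, in an unbroken fall 420 kb wide. So averaged, the day 7, day 14 and resistant means each crossed 0 downward 2 times inside the gene, first at 435, 390 and 402 kb. The day 28 mean crossed at 501 kb. Windows left of the gene's midpoint averaged 71.0% ± 3.30 untreated and 28.7% ± 8.91 at day 28, and those right of it -25.5% ± 4.32 and -19.0% ± 7.36. The right minus left difference was -98.1, -95.4 and -96.0 points untreated and -43.7, -41.4, -61.7 and -44.1 at day 28, without overlap. It rose by 48.8 points (SE 15.2, adjusted p = 0.0272), where 24.6% of 3703 genes with enough windows on each side passed; no other member passed then, and none of the 4 at day 7 (13.2%), day 14 (10.2%) or in the resistant lines (0%) in limma, with 2 (ALK and NTRK3), 0 and 0 at an unadjusted p under 0.05. The call was lost without any 1 untreated library (adjusted p = 0.0791 to 0.0954) or without day 28 replicate 1, 2 or 4 (adjusted p = 0.0589 to 0.0671), or without replicates 3 and 4 together (0.0590).

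A rise read as an initiation zone lay 41.9 kb beyond the 5′ end of ROS1. The untreated mean crossed 0 there, rising by 180, 153 and 167 points in the 3 libraries. The rise was 81.5 and 54.9 points at day 7, 52.1 and 82.4 at day 14, 30.2, 49.4, 52.5 and 55.0 at day 28, and 41.6 and 70.0 in lines 5 and 10. The place where the group mean crossed 0 stayed within 34.9 to 44.9 kb of ROS1 in all 5 groups. Left of ROS1, at 210 kb, the untreated mean passed 0 downward with a change of -128.7 ± 16.4 points, against -30.5 ± 25.0 at day 28. The zone 257 kb right of RET rose by 148 ± 21.6 points untreated and 55.1 ± 10.1 at day 28, and its crossing lay between 233 and 257 kb over the groups. The zone 343 kb right of ALK rose by 130 ± 7.21 and 48.3 ± 28.7 points, crossing between 341 and 379 kb. The weaker rise 78.5 kb left of NTRK3 measured 69.8 ± 11.5 points untreated, -24.0 ± 20.5 at day 7, 46.5 ± 21.7 at day 14, -4.63 ± 18.7 at day 28 and 22.2 ± 20.6 in the resistant lines. Zones were placed on the untreated mean, which favours large untreated values, so their heights are given without a test.

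Single windows were tested over the 80351 with a value in all libraries. At day 28, 36 of the 210 region windows passed (17.1%), against 11.5% of all windows. They comprised 13 of 49 around ROS1, 11 of 44 around RET, 10 of 81 around ALK and 2 of 36 around NTRK3. Neighbouring windows share forks and are not independent. All 36 were closer to 0 at day 28 than untreated: 18 rose from a negative and 18 fell from a positive untreated mean. At ROS1, 3 of the gene's 5 tested windows rose and 9 of 23 in its right flank fell, on either side of the initiation zone. The window holding ROS1's 5′ end, which also holds the promoter printed above, read -93.5%, -81.0% and -88.7% untreated and -20.0%, -45.9%, -32.4% and -33.3% at day 28 (adjusted p = 0.0366). The window holding RET's 5′ end read -84.6%, -86.7% and -77.6% untreated and -7.69%, -33.3%, -25.2% and 0% at day 28 (adjusted p = 0.0293). The groups did not overlap at either start. ALK's 6 called windows right of the gene rose and the 2 inside it fell, and none of NTRK3's 11 tested gene windows passed.

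At day 7, 2 region windows passed (1.1% of all windows did), 1 right of ROS1 and 1 left of NTRK3. At day 14 (0.631% of all windows) and in the resistant lines (0%) limma called none of the 210, with 43 and 35 at an unadjusted p under 0.05. The day 28 count went to 0 without any 1 untreated library and without replicate 1 or 2 of day 28, when at most 2 of all 80351 windows passed. It was 15 without replicate 4 of day 28, 23 without replicates 3 and 4 together, 54 without either day 7 library, and 59 and 58 without replicates 1 and 2 of day 14.

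**Figure D4:**
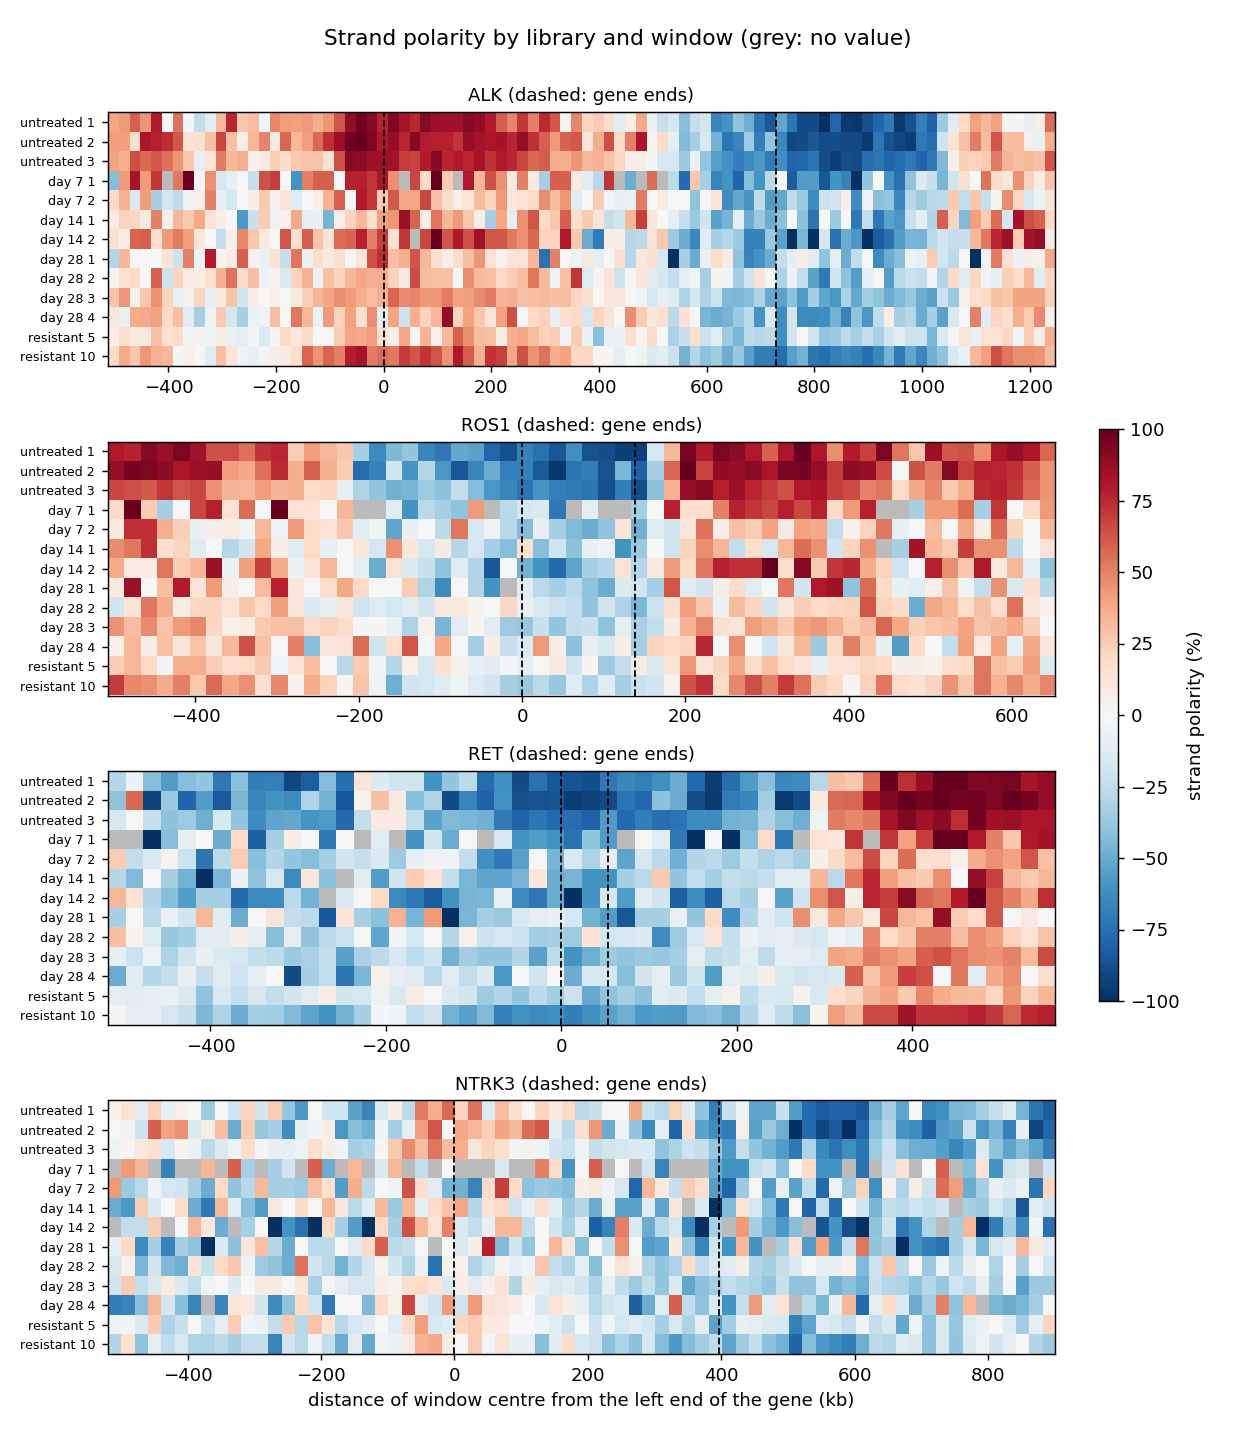
Strand polarity (%, colour) of each 20 kb window around the 4 genes (x axis: distance of the window centre from the gene's left end, kb) in each of the 13 libraries (rows), with dashed lines at the gene ends and grey for windows without a value. The borders between positive and negative stretches near ROS1 and RET recur at like places in most rows while the colours pale after treatment, and grey windows gather in replicate 1 of day 7.

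The regional slope on the untreated profile summarised each gene with its flanks. In untreated libraries it averaged 0.976 ± 0.0481 for ALK, 0.981 ± 0.141 for ROS1, 0.981 ± 0.118 for RET and 0.858 ± 0.156 for NTRK3 (n = 3). In the 8 osimertinib libraries it averaged 0.477 ± 0.153, 0.333 ± 0.147, 0.474 ± 0.169 and 0.317 ± 0.198. The groups did not overlap for ALK, ROS1 and RET (2-sided exact permutation p = 0.0121 each, the smallest 8 against 3 allows, adjusted p = 0.0485 over 12 tests), and overlapped in 1 library for NTRK3 (replicate 2 of day 14, 0.689; exact permutation p = 0.0242, adjusted p = 0.0727). The lowest value was 0.0820, around ROS1 in replicate 4 of day 28, and the highest treated value 0.749, around RET in replicate 2 of day 14. With 4 day 28 or 2 resistant libraries the exact permutation p was the smallest possible for all 4 genes (0.0571 and 0.2). The 3 calls over all osimertinib libraries were lost without any 1 of them or without any untreated library, as the smallest attainable p then rises.

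**Figure D5:**
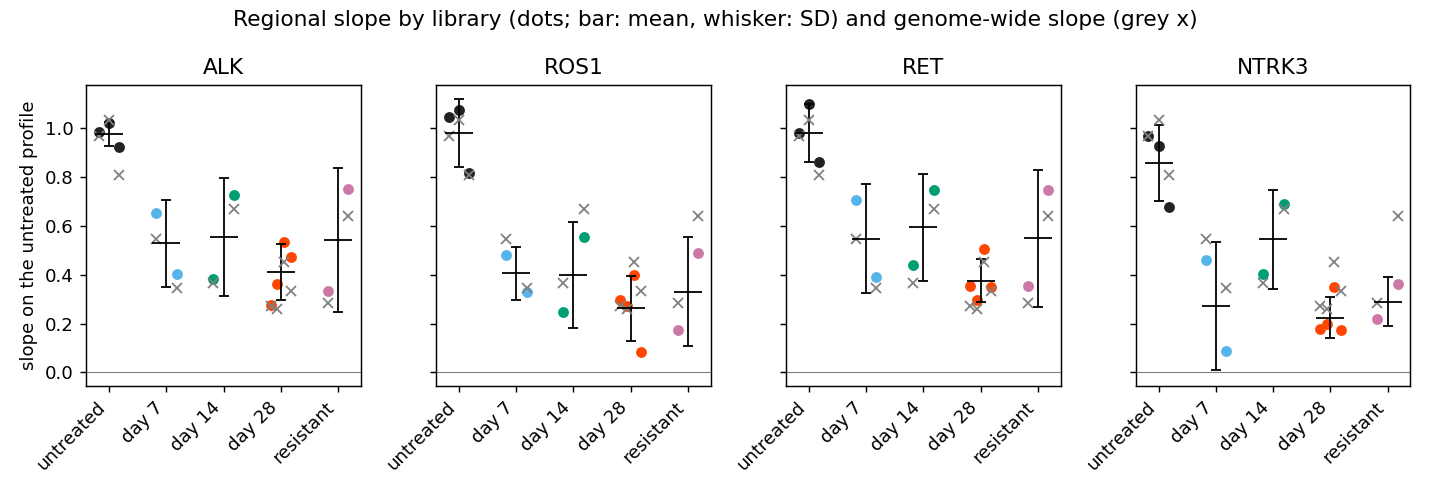
Slope of polarity on the untreated profile (y axis) over each gene and 500 kb either side in every library (dots), by group (x axis), with group mean (bar), SD (whisker) and the library's genome-wide slope (grey cross). Osimertinib dots lie below the untreated ones except for replicate 2 of day 14 at NTRK3, and line 10 at NTRK3 (0.361) lies well below its genome-wide cross (0.641).

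The regional slopes were set against each library's genome-wide slope. The regional minus the genome-wide slope of ROS1 was 0.0438 ± 0.0334 untreated and -0.0726 ± 0.0897 over the 8 osimertinib libraries (exact permutation p = 0.0364, adjusted p = 0.145 over 4 tests), with replicate 4 of day 28 lowest at -0.251 and replicates 1 and 2 of day 28 above 0. For ALK (0.0396 and 0.0716), RET (0.0439 and 0.0683) and NTRK3 (-0.0791 and -0.0885) the difference had an exact permutation p of 0.376, 0.388 and 0.945. The sign of polarity was read in each library: of region windows with an untreated mean of at least 20% in size, line 10 had the same sign in 48 of 48 around ROS1 and 42 of 42 around RET, and 67 of 72 around ALK. Line 5 had 36 of 48, 39 of 42 and 59 of 72. Among the 8 osimertinib libraries the counts ran from 31 (replicate 1 of day 14 and replicates 1 and 4 of day 28) to 45 of 48 around ROS1, from 34 (replicate 1 of day 7, replicate 1 of day 14 and replicate 4 of day 28) to 42 of 42 around RET, and from 49 (replicate 1 of day 28) to 70 of 72 around ALK. Replicate 3 of day 28 had the highest count around all 3 genes. Around NTRK3 the share ran from 13 to 20 of 23 over the 10 treated and resistant libraries.

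Among 23 fusion partners of the 4 kinases, 9 passed in mean polarity at day 28 (5 rose, 4 fell) and 1 (DCTN1) at day 14. None passed in limma at day 7 or in the resistant lines, with 8 and 4 at an unadjusted p under 0.05. The share at day 28 stands beside 28.9% of all genes. CCDC6, a coiled-coil partner of RET on the same chromosome, went from -75.6% ± 6.84 to -17.3% ± 10.8 (adjusted p = 0.0132), and CD74, the invariant chain and a partner of ROS1, from -56.7% ± 11.6 to -3.57% ± 31.7 (adjusted p = 0.0408). ETV6, a transcription factor and partner of NTRK3, fell from 21.8% ± 5.93 to -3.01% ± 6.35 (adjusted p = 0.0376). EML4, the microtubule-binding partner of ALK, read 24.9% ± 2.86 and 12.2% ± 4.00 (adjusted p = 0.275, and a difference of 10.5 points once scaled to the genome-wide slope), and KIF5B, a kinesin and partner of RET, 5.20% ± 12.4 and -0.560% ± 16.5 (adjusted p = 0.713). GOPC, a Golgi protein whose gene lies to the right of ROS1 beyond the initiation zone and which was singled out after its values were seen, fell from 77.3% ± 10.1 to 12.5% ± 16.2 (adjusted p = 0.0159), opposite in sign to ROS1.

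Of 14 tested ligands and co-receptors 8 passed at day 28 (5 rose, 3 fell), where 28.9% of all genes passed, as for the related receptors and adaptors below. PSPN, which encodes the RET ligand persephin, went from -66.3% ± 8.88 to 8.33% ± 13.7 (adjusted p = 0.0132), and GDNF from 70.0% ± 5.68 to 18.4% ± 19.6 (adjusted p = 0.0136). GFRA2 and GFRA4, co-receptors of RET, rose by 67.7 and 61.4 points (adjusted p = 0.0145 and 0.0202). Of 10 related receptors 3 fell and none rose: DDR1 and DDR2, the discoidin domain receptors of collagen, by 38.6 and 36.5 points, and SORT1, the sortilin receptor of pro-neurotrophins, by 36.0 points (adjusted p = 0.0201, 0.0266 and 0.0228). Of 16 signalling adaptors 2 rose and 5 fell; the largest changes among the 7 that passed were in SHC1 (66.3 points), GRB7 (-56.8), GAB2 (-56.0) and the phosphatase gene PTPN11 (-47.0), with adjusted p from 0.0132 to 0.0282. With polarity divided by the genome-wide slope, the differences of DDR2 (1.88 points) and PTPN11 (17.5 points) turned positive. At day 7, 1 ligand, 4 adaptors and no related receptor passed, and at day 14 only 1 adaptor, where 2.97% and 1.34% of all genes passed. The related receptors had 4 and 2 members at an unadjusted p under 0.05 at those days and the ligands 4 at day 14. In the resistant lines limma called none in these 3 lists, with 3, 2 and 4 at an unadjusted p under 0.05. The median size of the mean went from 27.0% to 12.5% in partners, 31.1% to 10.3% in ligands, 26.8% to 12.5% in receptors and 37.2% to 16.2% in adaptors, beside 34.6% to 13.3% over all genes. All calls named for these lists were lost without untreated replicate 1 or 2, GFRA2 with an adjusted p of 0.0617 and 0.0689, since no gene of the genome then passed.

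Genes on other chromosomes whose mean polarity was most like each member's over the 13 libraries were picked by the root-mean-square difference. For ALK these were ZSWIM5 (5.07 points), PRR5L (5.95) and ABTB3 (6.25), against a median of 31.9 over all other genes. For ROS1 they were ITGB3BP (9.58), RDH13 (9.69) and RICTOR (9.76), against 50.1. For RET they were SUMF1 (6.24), UBE2G1 (6.30) and KHDC1 (7.07), against 58.8, and for NTRK3 ROCK2 (6.77), ARID5A (6.78) and BICD1 (7.30), against 32.7. The likeness is a description over libraries that share their amplitude, and ROS1's nearest genes lay farther from it than those of the other 3.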

How the data were processed

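TrAEL-seq libraries of 13 PC9 samples were analysed. The deposited table gives strand polarity, a percent between -100 and 100 judging by its values, in 20 kb windows every 10 kb; its formula, its positive strand, any read minimum and the read totals: not given in the sources used here. Per the submitters' processing notes, the tools were Bowtie2 2.4.1 and Trim Galore 0.6.5. Polarity is a within-library ratio and was not rescaled, but a shallow library gives noisier values and more empty windows. Gene spans came from RefSeq on GRCh38.p14. Gene means used non-overlapping windows with a value in all 13 libraries, at least 1 per gene. Steps needed at least 2 of 3 windows on each side, or at least 1 with each library's own windows (added after seeing the gaps). The right minus left difference within genes was added after seeing the data, and the gradient within ALK was also not planned. The means, steps and windows were tested with limma 3.58.1 (R 4.3.3; lmFit, eBayes with trend), all 13 libraries in 1 fit, Benjamini-Hochberg over all genes or windows, threshold 0.05. The slopes were compared with 2-sided exact permutation tests (scipy 1.17.1). The limma fits were also run on simulated data with independent noise and a small set of genes moved at day 28. That simulation lacked the genome-wide loss of amplitude, so it does not test the setting of these data. Deviations of same-numbered libraries from their group means had correlations of -0.0739 to 0.0691 over 13 pairs, and no block was used in the main fit. In a group of 2 libraries the deviations mirror each other, so the pairs are not independent and pairing is not excluded. The named genes were the 4 members, EML4, KIF5B, CCDC6, CD74 and ETV6, of each other list at most 4 called genes with the largest day 28 change, and the 3 genes most like each member; GOPC and DCTN1 were named after their values were seen. The members, lists and tests were chosen with earlier results of these data known. ALKAL1 and NRTN had no usable window. Alternatives covered library weights, libraries with conflicting labels, groups in the fit, a replicate block, window choice, amplitude scaling, flank width and each library left out.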

Additional observations from a re-analysis of the deposited data

Results flagged for a closer look

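In 26 groups of 4 day 28 libraries examined, 3 held a library far from the other 3, where chance alone sets about 1 in 20 apart. ROS1's mean polarity was -1.44% in replicate 4 of day 28, against -30.7% to -25.9% in the other 3. The difference between the right and left sides of ALK's midpoint was -61.7 points in replicate 3 of day 28, against -44.1 to -41.4 in the others. The regional slope of NTRK3 was 0.350 in replicate 3 of day 28, against 0.173 to 0.198 in the others. Both libraries are those whose treatment label differs from their title; whether this bears on the values was not tested.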

How the results depend on the processing

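Depth is unknown, the groups hold 2 to 4 libraries, and every comparison with untreated cells shares the same 3 libraries. Genes called in mean polarity ranged from 0 to 2 at day 28 over the libraries left out, and in the step from 0 to 1. Region windows called ranged from 0 to 5 at day 7, 0 to 5 at day 14 and 0 to 59 at day 28. A block for the replicate number left 0 genes called in mean polarity at day 28 (ROS1 adjusted p = 0.0625, RET 0.0633, with 0 genes of the genome called), the day 28 step of NTRK3 had an adjusted p of 0.0770 and the day 7 step of ROS1 0.0713, while the called list genes named above all lost their calls and KIF5B's difference was 2.20 points; the cause was not tested. Scaling to the library's amplitude left 0 genes called at day 28 in mean and 0 in step, and turned the differences of RET at day 7 (-2.21), day 14 (-28.3) and in the resistant lines (-24.3), of ALK's mean at day 28 against day 7 (1.01) and resistant against day 28 (-3.71), of ALK's step at day 7 (-73.8), day 14 (-3.84), day 28 (-6.42), in the resistant lines (-4.47) and against day 28 (1.95), of RET's step in the resistant lines (3.93), of NTRK3's step at day 7 (-37.6) and in the resistant lines (-32.7), of ROS1's step in the resistant lines against day 28 (-23.7), and of DDR2 (1.88), PTPN11 (17.5) and EML4 (10.5). In mean polarity at day 7, 2 genes were called with day 28 replicates 3 and 4 placed at day 7, and 1 each with only the compared groups, all windows every 10 kb, each library's own windows, or at least 2 usable windows; each library's own windows also gave 1 at day 14, and array weights 1 in the resistant lines (ROS1). With 5 windows on each side, 1 step was called at day 7, 1 at day 14, 2 at day 28 and 1 in the resistant lines, and RET's step differences turned to -5.03 at day 7, 4.50 in the resistant lines and 2.27 at day 28 against day 7; each library's own windows gave 1 step at day 7 and 3 at day 28. Region windows called at day 7 were 0 with array weights or without replicates 3 and 4 of day 28, 1 with at least 1 value in every group and 15 of the 100 kb windows; the 100 kb windows gave 5 at day 14 and 5 in the resistant lines, array weights 98 at day 28 and 9 in the resistant lines, and leaving out both doubtful day 28 libraries 23. Small differences turned sign elsewhere: ALK's mean at day 28 against day 7 (0.611 with array weights, 0.230 with all windows, 2.28 with medians; -3.47 to 1.74 over libraries left out), ALK's resistant against day 28 (-1.03 with array weights; -2.75 to 4.51), NTRK3's at day 28 against day 7 (0.855 with all windows), ROS1's at day 28 against day 7 (-1.65 with both libraries at day 7) and resistant against day 28 (-10.04 to 22.9; step -7.07 to 9.20), RET's at day 28 against day 7 (-2.84 to 29.2), ALK's step resistant against day 28 (-64.8 to 11.5) and KIF5B (1.58 with both libraries left out or at day 7, 0.671 with medians; -10.8 to 2.20). The slope differences between osimertinib and untreated libraries missed the threshold with 250 kb either side (ALK -0.494, ROS1 -0.655, RET -0.585) and without both doubtful libraries, where fewer samples raise the smallest p (-0.509, -0.617, -0.491); NTRK3 passed with 1000 kb (-0.566). Over libraries left out they ranged from -0.535 to -0.471 (ALK), -0.679 to -0.612 (ROS1), -0.546 to -0.481 (RET) and -0.594 to -0.384 (NTRK3), and those of the resistant lines from -0.642 to -0.227 (ALK), -0.808 to -0.492 (ROS1) and -0.629 to -0.233 (RET).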
